A study of Caenorhabditis elegans with 6 samples.

Results

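The noncoding genes described here are all entries of the gene table whose annotated class (biotype) was neither protein-coding nor piRNA, with entries of no stated class and C38D9.13 left out. They numbered 9467 of 46769 genes and fell into 12 biotypes. There were 7741 ncRNA, 612 tRNA, 345 snoRNA, 209 tRNA pseudogene, 175 lncRNA, 136 miRNA, 127 snRNA, 99 antisense RNA and 20 rRNA loci, and 1 locus each of misc_RNA, scRNA and rRNA pseudogene. They were measured in plp-1(ok2155) mutants (3 libraries) and in the wild-type strain N2 (3 libraries) of the nematode Caenorhabditis elegans. All animals were hermaphrodites of mixed stages, from embryos to adults, kept at 20 °C on plates seeded with OP50 bacteria until the plates were full but food remained. plp-1 is the worm gene related to PURA, whose protein binds purine-rich DNA and RNA. RNA was sequenced in bulk from libraries of a stranded kit that enriches polyadenylated RNA, and the samples of a group are labelled as biological replicates. The sources used here do not say whether the ok2155 strain was outcrossed.

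Noncoding RNAs fall into infrastructural kinds, which run translation and RNA processing, and regulatory kinds, which act on other genes. rRNA and tRNA carry out translation, snRNA and the spliced leader RNAs take part in splicing, snoRNA guide the chemical modification of rRNA, and miRNA direct repression of mRNAs by Argonaute proteins. Most of these mature RNAs carry no poly(A) tail, whereas many lncRNA and the primary transcripts of miRNA do. A share of counts in these libraries is therefore not the abundance of a class in the animal.

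Libraries held 46665815, 46800016 and 41925388 counts in plp-1(ok2155) replicates 1 to 3, and 53486099, 50106030 and 39331848 in wild-type replicates 1 to 3. The plp-1 gene itself had 920, 888 and 959 counts in the plp-1(ok2155) libraries, against 18944, 20356 and 12639 in the wild-type libraries, so the labels fit the gene they name. The deposited counts are estimates rounded up to whole numbers per transcript, so a value of 1 can stand for less than 1 read: of 2000 such values among noncoding transcripts, 60.3% had an estimate under 0.5 reads.

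Few of the noncoding loci were detectable. Of the 9467 loci, 7546 had 0 counts in all 6 libraries and 157, or 1.66%, had at least 10 counts in each. Among protein-coding genes 12437 of 20090, or 61.9%, reached that level. By counting error alone, 0 counts in a library allow up to 3 counts, which is between 0.0561 and 0.0763 CPM by library (counts scaled to a common library size). Detection varied with length. Of loci of 1000 bases and over, 25% were detected in all 6 libraries (19 of 76), and of those of 500 to under 1000 bases 24.6% (28 of 114). Of loci under 100 bases 1.05% (33 of 3128) were detected. By class, 17.7% of lncRNA loci (31 of 175) reached 10 counts in every library, against 6.96% of snoRNA (24 of 345), 88 of 7741 ncRNA and 0 of 612 tRNA loci. On the X chromosome, which held 2941 of the loci, 1.05% were detected, against 3.1% of the 1032 loci on chromosome I.

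The first comparison asked whether noncoding RNA as a whole took another share of the library in the mutant. All noncoding loci together took 0.326%, 0.335% and 0.810% of the counts in plp-1(ok2155) replicates 1, 2 and 3, and 0.999%, 0.278% and 0.535% in wild-type replicates 1, 2 and 3. The groups overlapped, and the highest and the lowest library were both wild-type. The mean share was 0.491% ± 0.277 in plp-1(ok2155) and 0.604% ± 0.365 in wild-type (SD, n = 3 each). The log2 difference was -0.25, with a two-sided exact permutation p of 0.7, where 3 libraries against 3 allow no p under 0.1. Without wild-type replicate 1 the difference was 0.21. Counting error was far smaller than this spread, with a Wilson 95% interval of 0.324% to 0.328% in plp-1(ok2155) replicate 1 and of 0.996% to 1.00% in wild-type replicate 1. RNA was taken from whole animals, so fewer cells of a type and less RNA per cell cannot be told apart here.

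**Figure D1:**
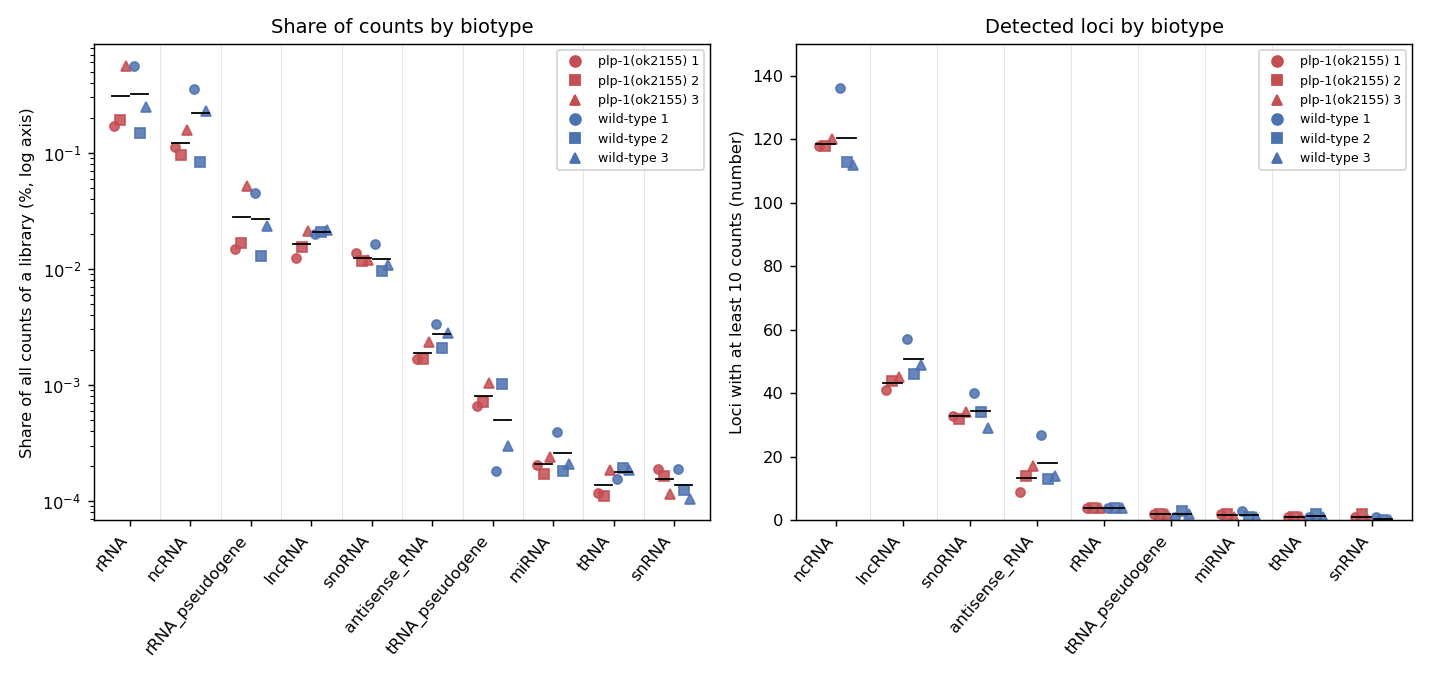
Left, the share of all counts of a library (%, log axis) held by each biotype, and right, the number of loci with at least 10 counts. Points are libraries, plp-1(ok2155) in red left of wild-type in blue, and black bars are group means. rRNA and ncRNA took the most counts, and in lncRNA the 3 plp-1(ok2155) libraries had 41, 44 and 45 detected loci against 57, 46 and 49 in wild-type.

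Ribosomal RNA took the largest share of any biotype in all 6 libraries. rRNA loci took 0.171%, 0.193% and 0.564% of counts in plp-1(ok2155), against 0.559%, 0.149% and 0.247% in wild-type, with plp-1(ok2155) replicate 3 and wild-type replicate 1 high. The log2 difference was -0.05 (exact permutation p = 1.0). Nearly all came from the 26S gene rrn-3.1 (chromosome I, 15064838 to 15068346, plus strand), the large-subunit rRNA, and from both 18S genes, the small-subunit rRNA. rrn-3.1 had 1304, 1295 and 4381 CPM in plp-1(ok2155), and 3520, 1136 and 2104 CPM in wild-type. Its log2 fold change was 0.05 ± 0.59 (SE; adjusted p = 0.988 in edgeR), and its sign turned under the replicate block and without some libraries. The ratios of the rRNA loci to each other varied less than their level. Both 18S genes together had 0.355, 0.374 and 0.292 counts per count of rrn-3.1 in plp-1(ok2155), and 0.311, 0.376 and 0.382 in wild-type, lowest in the 2 libraries with the most rRNA. The 852-base pseudogene rrn-3.56 had 0.118, 0.120 and 0.119 counts per count of rrn-3.1 in plp-1(ok2155), and 0.106, 0.119 and 0.131 in wild-type. The sources used here do not say how reads were divided between these near-identical copies, so their separate values are uncertain. The 5.8S gene rrn-2.1 varied more against 26S, with 0.00706, 0.0119 and 0.00267 counts per 26S count in plp-1(ok2155), against 0.00265, 0.0129 and 0.00353 in wild-type. All 16 loci of 5S rRNA, which is made by RNA polymerase III outside the main rDNA, had at most 2 counts in any library. Without the 18S, 26S and rrn-3.56 loci, a split chosen after the values were seen, noncoding loci took 0.141%, 0.127% and 0.196% in plp-1(ok2155), and 0.396%, 0.118% and 0.265% in wild-type.

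The other infrastructural classes were near the limit of detection. Of 612 tRNA loci 535 had 0 counts throughout, and the class summed to 55, 52 and 78 counts in plp-1(ok2155), against 82, 96 and 72 in wild-type. F22H10.t1, in an intron of F22H10.6, was the 1 tRNA locus that passed the filter on low counts, with 14, 12 and 45 counts in plp-1(ok2155) and 4, 69 and 43 in wild-type. tRNA pseudogenes had more counts than tRNA genes, owing to ZK380.t2 and D1005.t1 on the X chromosome. D1005.t1 had 71, 92 and 94 counts in plp-1(ok2155), against 9, 72 and 12 in wild-type, so that 2 wild-type libraries were far below the others. The log2 fold change was 1.48 ± 0.81 (SE; adjusted p = 0.624 in edgeR), and it was 0.98 without wild-type replicate 1 and 2.92 without wild-type replicate 2. ZK380.t2 followed the same order of libraries within wild-type, with 215, 225 and 322 counts in plp-1(ok2155) and 57, 415 and 80 in wild-type.

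Spliced leader RNAs donate the short exon that worms splice onto the start of many mRNAs. The 12 sls-1 loci, which encode the SL1 leader, never had more than 1 count each. Of 18 sls-2 loci, for the SL2 leader used within operons, 9 had 0 counts, and sls-2.8 alone exceeded 10 counts, with 13, 22 and 9 in plp-1(ok2155) and 16, 8 and 4 in wild-type. This gave a log2 fold change of 0.78 ± 0.63 (SE; adjusted p = 0.745 in edgeR). The Y RNA gene yrn-1 had a single count in plp-1(ok2155) replicate 3. rpr-1, the RNA subunit of RNase P, which trims the leading end of tRNA precursors, had 10, 12 and 8 counts in plp-1(ok2155), against 66, 7 and 5 in wild-type. Its one high library was wild-type replicate 1, and mrpr-1, the related RNase MRP RNA, had 18 of its 21 counts there. Without that library the log2 fold change of rpr-1 was 0.53, against -1.04 ± 0.85 (SE) with it.

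Few miRNA genes had counts. Of 136 loci 100 had 0 counts, and the class summed to 96, 80 and 101 counts in plp-1(ok2155), against 209, 91 and 82 in wild-type. let-7, the heterochronic miRNA that acts in the transition to the adult, had 0, 4 and 4 counts in plp-1(ok2155) and 0 in each wild-type library. All of these lay in its primary transcripts, while the 99-base precursor and both 22-base mature products had 0. mir-35, a miRNA of embryos, and mir-1, a miRNA of muscle, had 0 counts throughout. mir-8199, the miRNA locus with the most counts, had 45, 19 and 23 counts in plp-1(ok2155), against 95, 29 and 23 in wild-type, with a log2 fold change of -0.53 ± 0.60 (SE; adjusted p = 0.825 in edgeR).

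snoRNA loci took 0.0137%, 0.0116% and 0.0118% of counts in plp-1(ok2155), and 0.0163%, 0.00951% and 0.0107% in wild-type, a log2 difference of 0.06 (exact permutation p = 0.8). The number of snoRNA loci with at least 10 counts was 33, 32 and 34 in plp-1(ok2155) and 40, 34 and 29 in wild-type. Those counts came mostly from loci that lie inside exons of protein-coding genes. Of 345 snoRNA loci, 41 share bases with an exon of a protein-coding gene on the same strand, and these held 91.5%, 89.5% and 76.2% of snoRNA counts in plp-1(ok2155), and 92.7%, 86.4% and 91.9% in wild-type. The 141 loci in same-strand introns, the usual home of snoRNA genes, held between 3.00% and 8.73%. Of the 35 snoRNA loci that passed the filter, 24 lay wholly within same-strand exons and 6 within same-strand introns.

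R144.18, the snoRNA locus with the most counts (chromosome III, 5009876 to 5010064, minus strand), lies with all 189 bases in an exon of larp-1, which encodes a La-related RNA-binding protein. It had 29.03, 20.03 and 20.65 CPM in plp-1(ok2155), and 25.2, 21.8 and 30.2 CPM in wild-type. On the log2 scale the fold change was -0.15 ± 0.29 (SE), beside 0.14 ± 0.25 (SE) for larp-1. K09H9.11 likewise lies in vbh-1, a DEAD-box RNA helicase gene of the germ line. It had a log2 fold change of -0.11 ± 0.35 (SE), beside 0.31 ± 0.26 (SE) for vbh-1. F25H2.14 lies in an intron of tct-1, the gene of the translationally controlled tumour protein. It had 59, 80 and 47 counts in plp-1(ok2155), against 30, 49 and 11 in wild-type, with a log2 fold change of 1.13 ± 0.56 (SE; adjusted p = 0.591 in edgeR) beside -0.18 ± 0.31 (SE) for tct-1. The groups did not overlap in CPM, at 1.31, 1.59 and 1.13 in plp-1(ok2155) and 0.464, 1.04 and 0.330 in wild-type. K04D7.17, named after its values were seen, was a single-library case: it had 104, 2 and 647 counts in plp-1(ok2155), against 47, 73 and 42 in wild-type, with both the highest and the lowest value in the mutant.

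**Figure D2:**
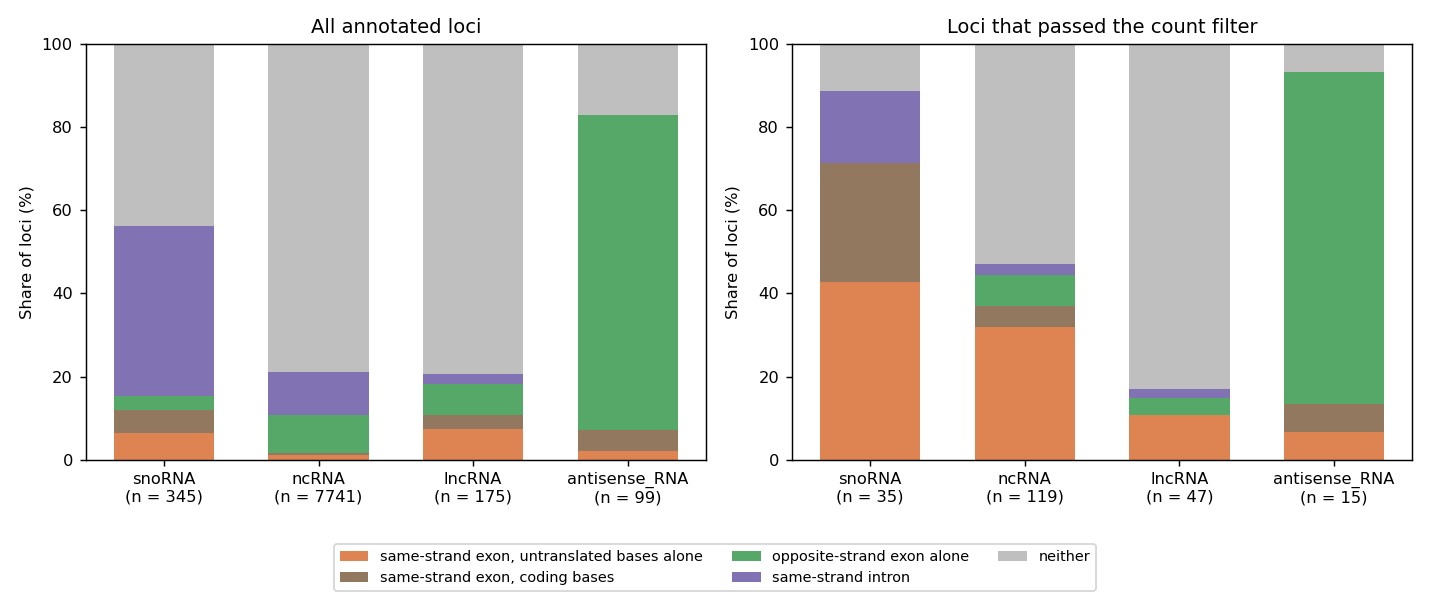
Position of noncoding loci against exons and introns of protein-coding genes, as a share of loci (%), for all annotated loci (left) and for loci that passed the count filter (right), by biotype. Bars stack the 5 kinds of position, and 17 ncRNA loci of unmatched strand are not drawn. Same-strand exonic loci are 41 of 345 snoRNA loci but 25 of the 35 that passed.

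Over all noncoding loci, those in same-strand exons passed the filter more often than the rest but held a minority of the counts. Loci that share exonic bases with a protein-coding gene on either strand held between 4.90% and 15.4% of noncoding counts. That total includes the rRNA loci, which took the largest share of any biotype, and tts-1. The share of exon-sharing loci without rRNA and tts-1 in the total is not given here. Within snoRNA, loci in same-strand exons held most of the counts in every library. Of the 227 that passed, 117 shared no exonic bases with a protein-coding gene and lay in no intron of one on the same strand. Introns of the opposite strand, and introns around loci of unmatched strand, were not recorded. Of loci whose shared bases lie in untranslated exon sequence on the same strand as a protein-coding gene, 41.8% passed the filter (59 of 141), and of loci sharing coding bases on that strand 25.8% (17 of 66). Of loci that share exonic bases on the opposite strand alone, 2.83% passed (23 of 813), and of loci in same-strand introns 0.883% (11 of 1246). The protein-coding gene models in the table cover coding bases alone: for all 15332 such genes with 1 transcript the length was a multiple of 3, or 100%. Where the protein-coding gene averaged at least 10 CPM, 56.1% of the same-strand untranslated loci (37 of 66) had at least 10 counts in every library, against 1.86% of the opposite-strand loci (4 of 215). The sources used here do not say if reads were counted by strand, so reads of a locus and of a gene overlapping it cannot be assigned with certainty.

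Log2 fold changes of noncoding loci were set beside those of the genes that hold them, as a description of pairs that can share reads. Among 68 tested loci that share same-strand exonic bases with a tested gene, 48 had the same sign as that gene, and Pearson's r across the pairs was 0.723. Among 11 intronic loci 8 had the same sign, with r = 0.686. Among 19 loci that share exonic bases on the opposite strand alone 10 had the same sign, with r = 0.0714. All pairs come from the same 6 libraries, and loci are not independent replicates.

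**Figure D3:**
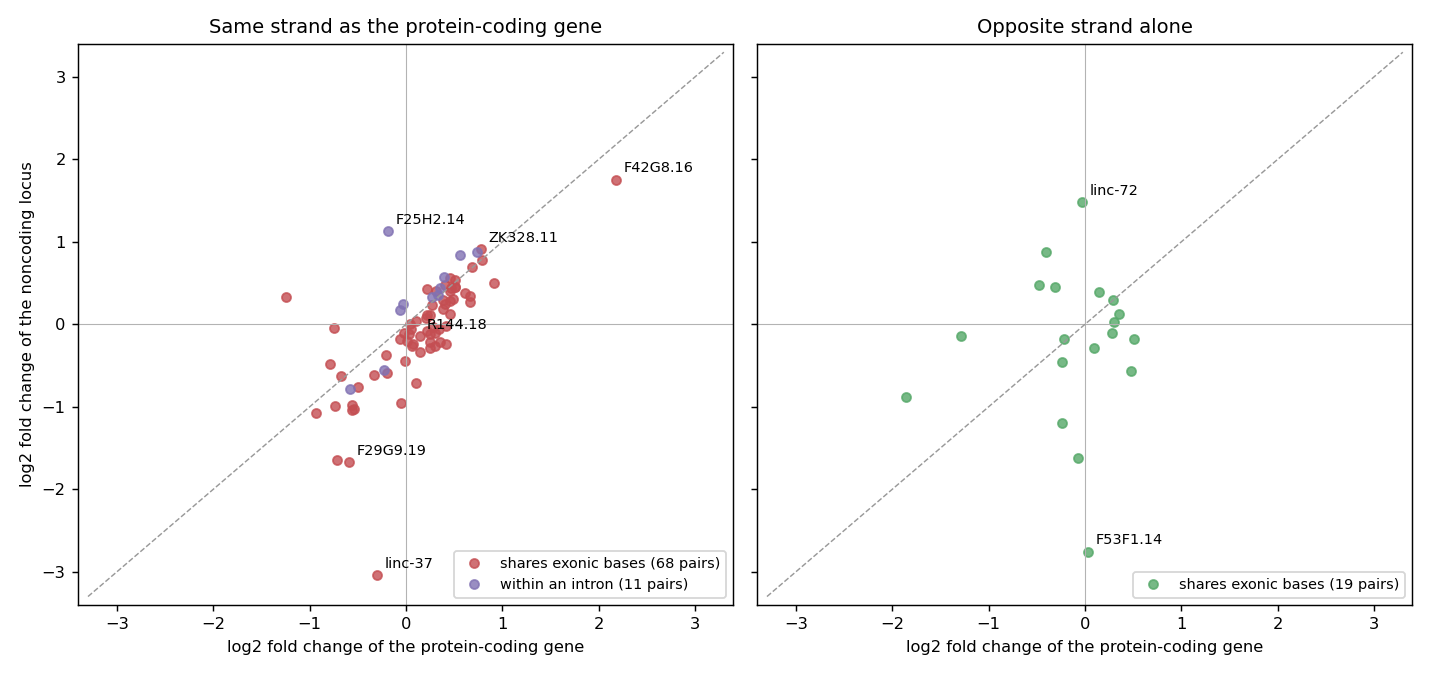
Log2 fold change (plp-1(ok2155) over wild-type) of each tested noncoding locus against that of the protein-coding gene it overlaps or lies within, for the same strand (left) and for the opposite strand alone (right). The dashed line marks equal values. Of 68 same-strand exonic pairs 48 share a sign, against 10 of 19 opposite-strand pairs.

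The second comparison asked which single noncoding genes had another level in the mutant. 227 noncoding loci passed edgeR's filter on low counts, within a fit of 15090 genes: 119 ncRNA, 47 lncRNA, 35 snoRNA, 15 antisense RNA, 4 rRNA, 2 miRNA and 2 tRNA pseudogene loci, and 1 each of tRNA, snRNA and rRNA pseudogene. A gene was called at a Benjamini-Hochberg adjusted p under 0.05 over all genes tested. edgeR's quasi-likelihood test called 0 of the 227, where it called 0.345% of all genes tested, 0.265% higher and 0.0795% lower. Before adjustment, at a p under 0.05, there were 4 higher and 9 lower loci, or 5.73%, beside 9.56% of all genes in edgeR (6.36% higher and 3.2% lower). DESeq2, which tested 478 noncoding loci, called 2 of them, F53F1.14 and linc-37, both lower in plp-1(ok2155). It called 3.33% of all 17750 genes it tested, and 0.592% as lower. edgeR with replicate numbers as a block called 1 locus, F53F1.14, also lower, and 1.45% of all genes. In 25 loci, or 11%, the groups did not overlap, 14 higher and 11 lower, beside 14.2% of all genes (8.75% higher and 5.49% lower). The median log2 fold change of the 227 loci was -0.12, beside -0.03 over all genes. The count of 9 lower loci was 1 without plp-1(ok2155) replicate 1, 2 without plp-1(ok2155) replicate 2, 21 without plp-1(ok2155) replicate 3, 19 without wild-type replicate 2 and 1 without wild-type replicate 3. The count of 4 higher loci was 1 without plp-1(ok2155) replicate 1, 2 without plp-1(ok2155) replicate 2, 8 without wild-type replicate 2 and 1 without wild-type replicate 3.

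**Figure D4:**
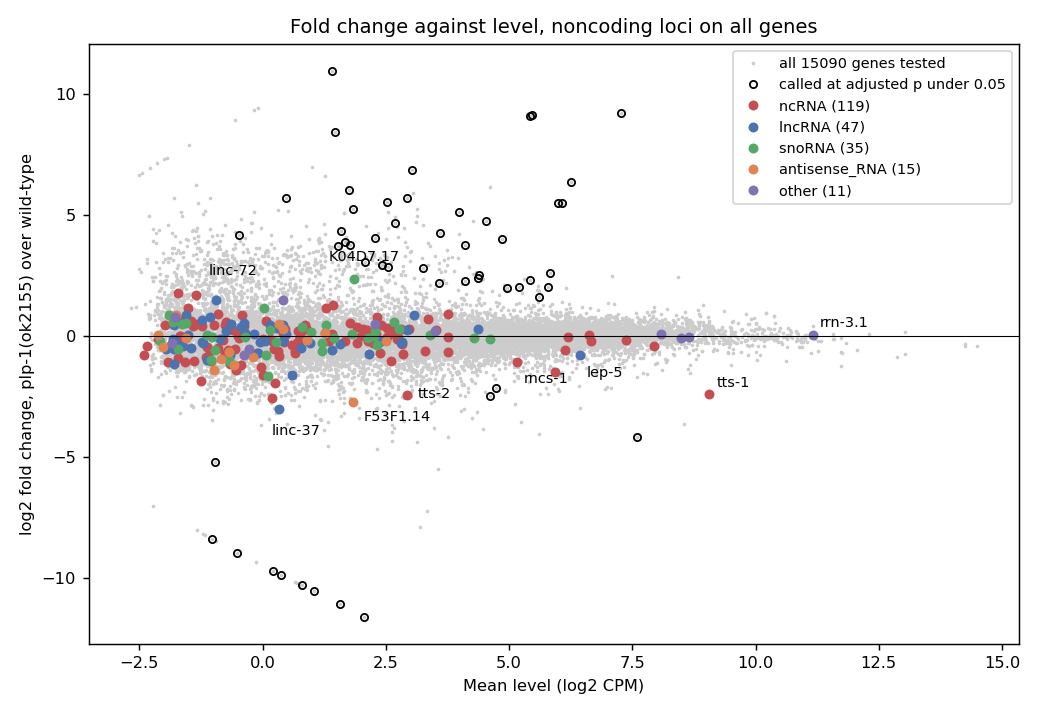
Log2 fold change (plp-1(ok2155) over wild-type) against mean level (log2 CPM) for all 15090 genes tested in grey, with the 227 noncoding loci coloured by biotype and called genes ringed in black. None of the 40 higher and 12 lower called genes is among these 227 loci, and tts-1 and F53F1.14 lie at -2.42 and -2.76.

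Antisense RNAs are transcribed from the strand opposite a gene. As a class they took 0.00167%, 0.00166% and 0.00236% of counts in plp-1(ok2155), and 0.00335%, 0.00208% and 0.00281% in wild-type, with a log2 difference of -0.53 (exact permutation p = 0.2, adjusted over 10 biotypes 0.75). F53F1.14 (chromosome V, 13407222 to 13407929, minus strand) shares 426 bases on the opposite strand with F53F1.2. It had 0.778, 0.258 and 1.68 CPM in plp-1(ok2155), and 7.77, 0.951 and 9.63 CPM in wild-type. Wild-type replicates 1 and 3 stood above all other libraries, while wild-type replicate 2 lay among the mutant values. Its log2 fold change was -2.76 ± 0.94 (SE; adjusted p = 0.365 in edgeR). It passed the threshold with replicate numbers as a block in edgeR (adjusted p = 0.0324, in a fit that called 0.424% of all genes lower) and with DESeq2 (adjusted p = 0.0316). F53F1.2 on the other strand had a log2 fold change of 0.03 ± 0.24 (SE). Among the 15 tested antisense loci 2 were lower without overlap of the groups, or 13.3%, beside 14.2% of all genes. One was ZK822.8, with a log2 fold change of -0.88 ± 0.51 (SE) and an adjusted p of 0.647 in edgeR. The antisense locus with the most counts, anr-8, had 232, 223 and 250 counts in plp-1(ok2155), against 334, 366 and 172 in wild-type, and a log2 fold change of -0.21 ± 0.38 (SE; adjusted p = 0.893 in edgeR).

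lncRNA loci took 0.0124%, 0.0155% and 0.0212% of counts in plp-1(ok2155), and 0.0198%, 0.0208% and 0.0218% in wild-type (log2 difference -0.38, exact permutation p = 0.3, adjusted over 10 biotypes 0.75). Without lep-5 the difference was -0.049 (exact permutation p = 0.9), and with single libraries left out it ran from -0.58 without plp-1(ok2155) replicate 3 to -0.20 without plp-1(ok2155) replicate 1. Their detected loci were the one class count in which the groups did not overlap. There were 41, 44 and 45 loci with at least 10 counts in plp-1(ok2155), and 57, 46 and 49 in wild-type. The means were 43.3 ± 2.08 and 50.7 ± 5.69 (SD, n = 3 each; exact permutation p = 0.1, the smallest this design allows, adjusted over 9 biotypes 0.9). The difference of -7.33 ran from -9.67 without wild-type replicate 2 to -4.17 without wild-type replicate 1. The separation was lost with loci counted from 0.25 CPM (difference -7.67, exact permutation p = 0.2) and from 1 count (difference -3.67, exact permutation p = 0.9). From 1 count there were 91, 94 and 94 loci in plp-1(ok2155), against 107, 94 and 89 in wild-type.

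lep-5 (chromosome X, 12652591 to 12653520, minus strand) is a lncRNA of the heterochronic pathway, which times the juvenile-to-adult change. It held between 36.6% and 60.7% of all lncRNA counts. Its level was 47.2, 54.3 and 86.6 CPM in plp-1(ok2155), and 74.7, 98.8 and 156 CPM in wild-type, so that plp-1(ok2155) replicate 3 lay above wild-type replicate 1. The mean was 62.7 ± 21.0 CPM in plp-1(ok2155) and 109.8 ± 41.8 CPM in wild-type (SD, n = 3 each), with a log2 fold change of -0.81 ± 0.35 (SE; adjusted p = 0.523 in edgeR). It was -0.49 without wild-type replicate 3 and -1.18 without plp-1(ok2155) replicate 3. In all 3 pairs of the same replicate number the plp-1(ok2155) library was lower, and the share of all genes with this pattern is not given here. With the replicate block the adjusted p of lep-5 in edgeR was 0.0856.

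linc-37 (chromosome III, 832984 to 833347) and linc-72 (chromosome II, 8819812 to 8820154, plus strand) were named after their values were seen, as the lncRNA loci with the smallest p. linc-37 had 13, 7 and 15 counts in plp-1(ok2155), against 124, 7 and 149 in wild-type. As with F53F1.14, wild-type replicate 2 lay with the mutant libraries. The log2 fold change was -3.04 ± 1.05 (SE; adjusted p = 0.373 in edgeR, DESeq2 adjusted p = 0.0489). It shares 78 same-strand exonic bases with zip-2, a bZIP factor of the response to translation block by pathogens, whose log2 fold change was -0.30 ± 0.44 (SE). linc-72 had 33, 31 and 32 counts in plp-1(ok2155), against 17, 13 and 7 in wild-type, with no overlap and a log2 fold change of 1.48 ± 0.51 (SE; adjusted p = 0.369 in edgeR). Of linc-1 to linc-9, linc-3 had 0 counts throughout and the other 8 were tested. Their log2 fold changes ran from -0.73 in linc-5 to 0.26 in linc-7, and none passed the threshold. linc-7 and linc-6 were both highest in wild-type replicate 2 and lowest in wild-type replicate 1, at 352, 1863 and 381 counts for linc-7 in wild-type replicates 1 to 3, beside 802, 1235 and 1049 in plp-1(ok2155).

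Among ncRNA loci, a mixed class of unclassified transcripts, tts-1 stood out by its level and by its spread. tts-1 (chromosome X, 1504131 to 1504841, minus strand) is a long noncoding RNA known from dauer larvae and long-lived insulin-pathway mutants, where it binds ribosomes. It had 101, 47.7 and 357 CPM in plp-1(ok2155), and 1423, 68.4 and 1205 CPM in wild-type. Wild-type replicates 1 and 3 were above every mutant library, and wild-type replicate 2 was below 2 of the 3. Between libraries of the same replicate number, which deviated together, tts-1 was lower in plp-1(ok2155) in 3 of 3 pairs. The share of all genes lower in 3 of 3 pairs is not given here. With the replicate block the adjusted p of tts-1 in edgeR was 0.127. Without the block its log2 fold change was -2.42 ± 1.06 (SE; adjusted p = 0.524 in edgeR), between -3.71 without plp-1(ok2155) replicate 3 and -1.93 without wild-type replicate 1. In length-scaled units it had 141, 73.9 and 515 FPKM in plp-1(ok2155), against 2488, 93.4 and 1487 FPKM in wild-type. By FPKM it ranked 1246, 2861 and 332 among all genes in plp-1(ok2155) replicates 1 to 3, and 50, 2188 and 143 in wild-type replicates 1 to 3. It alone supplied 8.76%, 5.38% and 22.5% of ncRNA counts in plp-1(ok2155), and 48.5%, 7.82% and 44.7% in wild-type. Its 659-base transcript held at least 84.7% of its counts in every library.

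Without tts-1 and the rRNA loci named above, noncoding loci took 0.131%, 0.122% and 0.161% of counts in plp-1(ok2155), and 0.224%, 0.111% and 0.163% in wild-type. The ncRNA class as a whole took 0.111%, 0.0954% and 0.158% in plp-1(ok2155), and 0.354%, 0.0825% and 0.229% in wild-type (log2 difference -0.67, exact permutation p = 0.4, adjusted over 10 biotypes 0.8). The difference was -0.22 without tts-1 (exact permutation p = 0.6), -0.21 without wild-type replicate 1 and -1.26 without wild-type replicate 2.

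rncs-1 (chromosome X, 1011501 to 1012347, plus strand) is a noncoding RNA that rises on starvation and can inhibit Dicer. It had 17.98, 18.2 and 32.8 CPM in plp-1(ok2155), and 69.9, 29.97 and 44.2 CPM in wild-type. One mutant library, replicate 3, lay above wild-type replicate 2. The mean was 22.97 ± 8.49 CPM in plp-1(ok2155) and 48.1 ± 20.3 CPM in wild-type (SD, n = 3 each), with a log2 fold change of -1.06 ± 0.40 (SE; adjusted p = 0.427 in edgeR), and of -0.70 without wild-type replicate 1. W05H9.3 and T05E11.9, the ncRNA loci with the next most counts, varied less. W05H9.3 had 182, 164 and 283 CPM in plp-1(ok2155), and 214, 177 and 461 CPM in wild-type, with a log2 fold change of -0.44 ± 0.41 (SE; adjusted p = 0.787 in edgeR). T05E11.9 had 113, 103 and 251 CPM in plp-1(ok2155), and 169, 142 and 215 CPM in wild-type, with a log2 fold change of -0.17 ± 0.38 (SE; adjusted p = 0.919 in edgeR).

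tts-2 and Y53F4B.45, named after their values were seen, also peaked in wild-type replicate 1. tts-2 had 3.38, 0.695 and 3.00 CPM in plp-1(ok2155), against 34.9, 1.35 and 1.80 CPM in wild-type. Without wild-type replicate 1 its log2 fold change was 0.57, against -2.43 ± 1.24 (SE) with all libraries. Y53F4B.45 had 29.8, 17.2 and 48.1 CPM in plp-1(ok2155), against 193, 13.6 and 63.3 CPM in wild-type. Among the 47 noncoding loci that averaged at least 5 CPM, the highest library exceeded the lowest at least 10-fold in 4, or 8.51%, namely tts-2, tts-1, Y53F4B.45 and Y71F9AM.9. Of all genes at that level 5% did (461 of 9211). The median ratio of highest to lowest library was 2.53 for the noncoding loci and 2.07 for all genes. Wild-type replicate 1 was the highest library for 54 of the 227 tested loci, or 23.8%, against 17.9% of all genes.

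**Figure D5:**
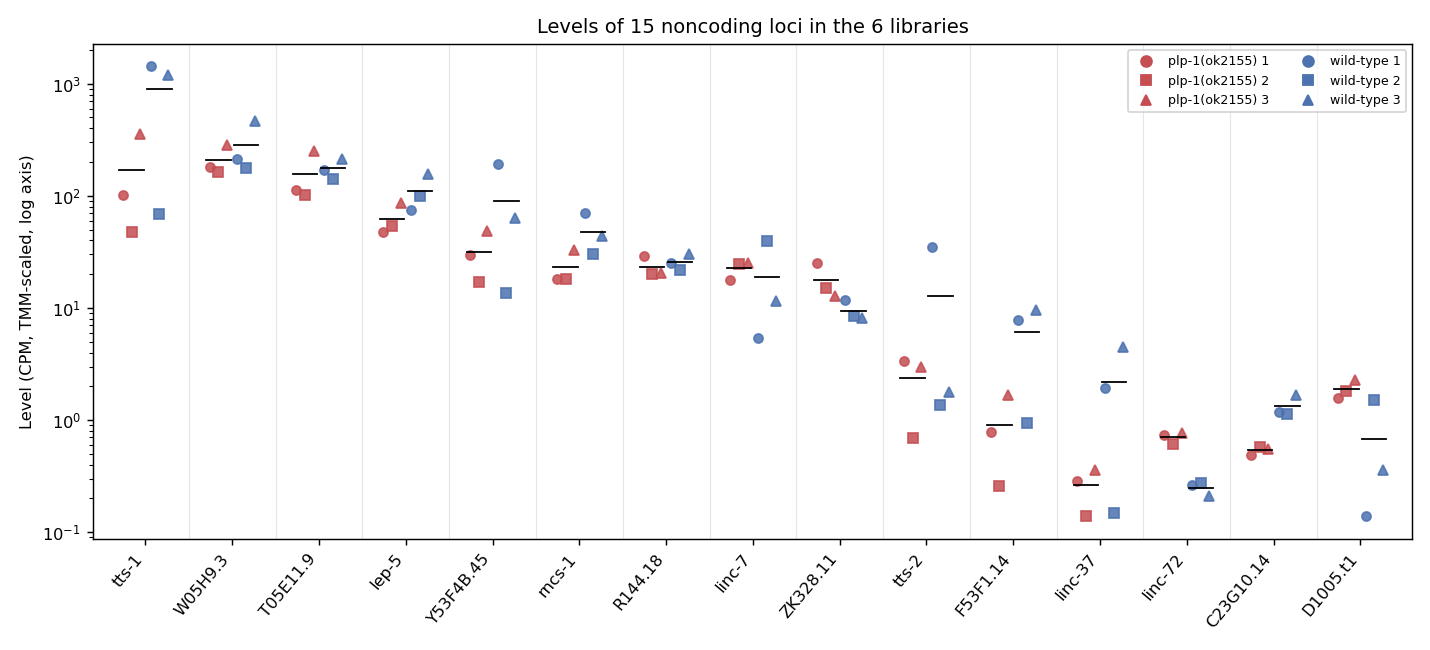
Levels (CPM with TMM-scaled library sizes, log axis) of 15 noncoding loci in each library, plp-1(ok2155) in red left of wild-type in blue, with black bars for group means. tts-1, F53F1.14 and linc-37 are high in wild-type replicates 1 and 3 and low in wild-type replicate 2, while linc-72 and C23G10.14 do not overlap between groups.

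Among the 119 tested ncRNA loci the groups did not overlap in 13.4%, 9 higher and 7 lower, beside 14.2% of all genes. Some of these loci without overlap are described here. Y11D7A.21 was higher, at a log2 fold change of 0.69 ± 0.35 (SE). F53F10.6 and Y48G10A.9 were lower, at -0.75 ± 0.33 and -0.61 ± 0.35 (SE), and edgeR called neither. Each lies wholly within same-strand exons of a protein-coding gene, with which it can share reads. Those genes, Y11D7A.7, F53F10.8 and Y48G10A.3, had log2 fold changes of 0.69 ± 0.25, -0.50 ± 0.32 and -0.33 ± 0.23 (SE). C23G10.14 (chromosome III, 6189307 to 6190109, plus strand) had 0.489, 0.576 and 0.552 CPM in plp-1(ok2155), and 1.19, 1.141 and 1.68 CPM in wild-type. Its log2 fold change was -1.30 ± 0.46 (SE; adjusted p = 0.386 in edgeR). C04G6.15 had 4.20, 3.85 and 1.83 CPM in plp-1(ok2155), and 1.75, 1.06 and 1.62 CPM in wild-type, with a log2 fold change of 1.16 ± 0.49 (SE; adjusted p = 0.506 in edgeR). ZK328.11 lies wholly within an exon of npp-10, a nuclear pore gene. It had 25.3, 15.2 and 12.8 CPM in plp-1(ok2155), and 11.8, 8.39 and 8.10 CPM in wild-type, with a log2 fold change of 0.92 ± 0.38 (SE; adjusted p = 0.505 in edgeR) beside 0.78 ± 0.32 (SE) for npp-10. F42G8.16, chosen after its values were seen, had 25, 21 and 10 counts in plp-1(ok2155), against 7, 6 and 4 in wild-type. It shares 56 same-strand exonic bases with islo-1, which was itself called higher in plp-1(ok2155) with a log2 fold change of 2.18 ± 0.34 (SE; adjusted p = 0.0486 in edgeR), beside 1.76 ± 0.63 (SE; adjusted p = 0.391 in edgeR) for F42G8.16.

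Loci counted in a single group were mostly at the floor, and wild-type replicate 1 had the most loci with any count. There were 865, 850 and 792 such loci in plp-1(ok2155), against 1248, 754 and 716 in wild-type. Wild-type replicate 1, the library with the most counts, was also highest among piRNA loci, with 672 beside 401 to 475 in the other libraries. Among protein-coding genes it had 16958, beside 15777 to 16736. 401 loci had counts in plp-1(ok2155) alone, 362 of them with at most 3 counts in all, and 587 had counts in wild-type alone, 513 of them with at most 3. At least 10 summed counts were reached by 4 loci of plp-1(ok2155) alone and by 14 of wild-type alone. Matching shares over all genes were not computed. The highest of these loci, named after their values were seen, rested on 1 or 2 libraries. Y48G8AL.17 had 611, 0 and 249 counts in plp-1(ok2155) replicates 1 to 3 and 0 in every wild-type library. Y71A12B.31 had 0 counts in every plp-1(ok2155) library and 0, 163 and 0 in wild-type replicates 1 to 3.

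Genes that make, process or bind noncoding RNA were read from lists of the same fit, in which edgeR called 0 of them in any list, as did DESeq2, where edgeR called 0.345% of all genes. The 8 tested genes for proteins of the core snoRNP, the particle in which snoRNA work, all had log2 fold changes above 0. The lowest was 0.002 ± 0.27 (SE), in nola-3. Of all 15090 genes tested 7165 were above 0. The median of the 8 was 0.34 beside -0.03 over all genes. A p under 0.05 before adjustment was reached by 1 of the 8, beside 9.56% of all genes. Among them fib-1, the fibrillarin methyltransferase, had 736, 559 and 536 CPM in plp-1(ok2155), and 449, 535 and 465 CPM in wild-type. On the log2 scale the difference was 0.34 ± 0.26 (SE; adjusted p = 0.738 in edgeR). The median log2 fold change was 0.17 over 18 subunits of SNAPc and of RNA polymerases I and III, which transcribe rRNA and tRNA. Of the 18, 2 had a p under 0.05 before adjustment in edgeR, both higher, beside 6.36% of all genes. Medians were 0.22 over 13 miRNA biogenesis and effector genes, 0.33 over 11 poly(A) tail enzymes and 0.05 over 12 RNA exosome genes. They were 0.04 over 12 spliced leader and Sm protein genes and 0.03 over 9 genes of nonsense-mediated decay. In these last 5 lists edgeR gave 0 genes an unadjusted p under 0.05. rop-1, which binds Y RNA, had a log2 fold change of -0.27.

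RNA shares of stage and germline markers differed between libraries as well. The 6 vitellogenin genes, yolk protein markers of adult hermaphrodites, took 6.19%, 4.81% and 9.38% of counts in plp-1(ok2155), and 4.48%, 8.31% and 13.5% in wild-type. The 35 genes of major sperm proteins took 0.0178%, 0.0227% and 0.00590% in plp-1(ok2155), and 0.00194%, 0.000770% and 0.00272% in wild-type, and 1 of them was at 0 throughout. This sperm share did not overlap between the groups and was higher in every plp-1(ok2155) library, while the vitellogenin share overlapped. The 5 early embryo genes end-1, end-3, med-1, med-2 and pes-10 took between 0.000541% and 0.00151% in plp-1(ok2155), and between 0.000313% and 0.000928% in wild-type. Marker shares do not separate stage composition from a change within a stage, and their part in the levels of tts-1, lep-5 and rncs-1 was not tested.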

How the data were processed

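The authors deposited a table of 46769 genes and a table of 56158 transcripts. Per the submitters' processing notes, StringTie 1.3.4d, HISAT2 2.1.0, DESeq2, Bowtie2 2.3.4.1, FastQC 0.11.7 and Trimmomatic 0.38 were used. Coordinates are on WBcel235, per the labels. The deposited values are estimated counts, rounded up per transcript and summed per gene, and FPKM (scaled for length and depth) from the authors. Checked against FPKM, 100% of 4841 noncoding transcript counts from 1 to 50 lay 0 to 1 above the estimate, within 0.05. The counts entered the tests as deposited, without 24 entries that have no symbol (at most 0.0246% of a library).

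All genes kept by filterByExpr were fitted with edgeR's quasi-likelihood test (4.0.16, R 4.3.3) with TMM scaling and the group as the single term. DESeq2 (1.42.0) was an alternative. Class shares and detected loci were compared by two-sided exact permutation over libraries. Overlaps used Ensembl annotation of the same assembly, in which 8496 of the 9467 loci were matched and 971 were not. Same-numbered libraries deviated together from their group means (r = 0.285, 0.205 and 0.358), from the data and not from the labels, so a replicate block was fitted as an alternative. P-values set a group difference against the spread between these libraries.

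Loci were named if called, if among the 3 with the highest CPM per biotype, or if well-known members of their class. They were also named if among the 3 smallest p per direction where groups did not overlap and the higher one averaged at least 1 CPM. Not all loci that met these rules are described. Members and lists were chosen with earlier results of these data known. Of the well-known names, lin-4, mir-51, lsy-6, MTCE.7 and MTCE.33 were not analysed here. The edgeR step was tested on simulated data.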

Additional observations from a re-analysis of the deposited data

How the results depend on the processing

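Of the count of called loci, 0 became 2 with DESeq2 and 1 with the replicate block, which pairs libraries of the same number. It remained 0 under the other scalings and filters tried and without each library (lowest and highest 0). The block changed no other call. It turned the log2 fold change of rrn-3.1 to -0.046 and that of rrn-3.56 to -0.044. K10D3.10, a snoRNA locus in hpo-11, was at -0.012 with upper quartile scaling and at -0.0050 without a count filter.

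Class differences in log2 share, with one library left out, ran from -0.71 to 0.21 for all noncoding loci, -1.26 to -0.21 for ncRNA, -0.10 to 0.29 for snoRNA, -0.49 to 0.067 for miRNA, -0.0072 to 0.41 for snRNA, -0.59 to 0.47 for rRNA and -0.60 to 0.44 for the rRNA pseudogene. The tRNA difference was 0.0096 without its top locus. Differences in detected loci without one library ran from -5.83 to 6.17 for ncRNA and from -4.0 to 1.5 for snoRNA. The snoRNA difference was 0.333 from 1 count or from 0.25 CPM, 1.0 from an FPKM of 0.5, and 0.667 without loci sharing exonic bases. From 1 count it was 2.67 for tRNA, -8.67 for snRNA and, from -1.67 in the main setting, -51.0 for ncRNA, where wild-type replicate 1 had 787 loci and the other libraries 378 to 490.

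Log2 fold changes that changed sign without one library ran from -0.17 to 0.54 for F19C6.8, -0.36 to 0.10 for K09H9.11, -0.26 to 0.34 for K10D3.10, -0.78 to 0.057 for T05E11.9, -0.78 to 0.064 for W05H9.3, -0.74 to 0.045 for linc-2, -0.16 to 1.18 for linc-6, -0.18 to 1.39 for linc-7, -1.55 to 0.53 for rpr-1, -0.81 to 0.25 for rrn-1.1, -0.81 to 0.28 for rrn-1.2, -0.016 to 0.46 for rrn-2.1, -0.90 to 0.52 for rrn-3.1, -0.86 to 0.42 for rrn-3.56 and -3.06 to 0.57 for tts-2. The cause was not tested. With 3 libraries a group, class comparisons cannot give a p under 0.1, and most loci had too few counts to compare.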
